A study of Mus musculus with 9 samples.

Results

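Semaphorins are guidance proteins, and plexins and neuropilins are their receptors. All protein-coding genes in the count tables whose symbols name a semaphorin of classes 3 to 7, a plexin or a neuropilin were followed, which gave 31 genes of 32787 entries. They comprised 20 semaphorins (7 of class 3, 6 of class 4, 2 of class 5, 4 of class 6 and 1 of class 7), 9 plexins and 2 neuropilins. Cells were taken from dissected ventral midbrain tissue of the mouse line VGAT:Ai14:PITX3-GFP. In this line Cre driven from the VGAT (Slc32a1) gene turns on tdTomato, and GFP reports Pitx3, a transcription factor of midbrain dopamine neurons. Because Cre recombination is permanent, tdTomato marks every cell that has expressed VGAT at any time. Cells were sorted one by one into 384-well plates late in gestation (E16.5) or around birth (P0.5). The tdTomato-positive sort filled 4 E16.5 plates and 3 P0.5 plates (VGAT plates). The sort positive for both tdTomato and GFP filled 1 plate at each stage (VGAT+Pitx3 plates). All groups came from this line, and the labels name no treatment.

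Class 3 semaphorins are secreted, and most of them bind a neuropilin, which holds the ligand while a plexin of class A passes the signal into the cell. Sema3e is the exception that binds Plxnd1 directly. Semaphorins of classes 4 to 7 stay on the membrane and bind plexins without a neuropilin, as Sema6a does with Plxna2 and Plxna4, Sema6d with Plxna1, and Sema7a with Plxnc1. Plexins act on small GTPases and on the cytoskeleton, so that a growing axon or a migrating neuron turns away from or towards the source. In the ventral midbrain these cues are known for steering the axons and the settling of dopamine neurons and of their neighbours.

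After filtering, 2035 of 3455 wells were kept, 44 to 305 per plate, and their counts summed to between 1435919 and 5408710 per plate. Replicates were plates that may share animals and litters, so p-values measured the spread between plates. Barcodes mark well positions, so the same 384 positions recur on the plates, and 0 pairs of wells held identical counts. The sort labels were checked on Pitx3, which stood at 147 and 78.0 CPM (counts scaled to a library of 1000000) on the VGAT+Pitx3 plates and at 0 to 0.380 CPM on the VGAT plates. On the VGAT+Pitx3 plates the GABA marker Gad2 was present at 936 and 1040 CPM, whereas Gad1 stood at 14.5 and 10.3 CPM against 796 to 1210 CPM on the VGAT plates. Each cell carries a plate name of 2 parts, and for 4 of 9 plates the second part gives the other stage. The second part also carries the letter d on 2 VGAT plates (E16.5 replicate 4 and P0.5 replicate 3) and the letter s on both VGAT+Pitx3 plates, with no meaning given for either. The first part was used, which matches the sample titles, and the Pitx3 levels separated the sorts as it names them. No such check was made for stage, so which part gives the right stage was not settled. Stage results are therefore also given for the plates on which both parts gave the same stage.

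Among the class 3 ligands, Sema3b and Sema3g stayed near the floor set by 3 counts, with 0 to 6 counts of Sema3b and 0 to 5 of Sema3g per plate. Sema3d had 6 to 29 counts per plate. Plxnb3, the plexin of oligodendrocytes, had 0 to 2 counts per plate, and Plxnd1, the receptor of Sema3e, had 0 to 8. Sema3b, Sema3g, Plxnb3 and Plxnd1 were at 0 on at least 1 plate, and on those plates they were not detectable at this depth, where 3 counts equalled 0.555 to 2.09 CPM. The other 26 members had at least 5 counts on every plate. Part of the counts came from introns. The unspliced share of the counts over all plates was 87.9% for Sema6d, 64.0% for Sema5b, 60.0% for Nrp1, 58.4% for Sema3e, 55.3% for Plxna4 and 51.2% for Sema6a, against 23.8% for Plxnc1, 19.0% for Sema3c and 1.3% for Plxna1. Genes on the opposite strand overlap some members, and without a stated strand setting the reads of both cannot be told apart. Over all plates Gm5963 had 209 counts against 1059 of Sema5b, D430040D24Rik had 74 against 754 of Sema4c, and Gm8925 had 46 against 147 of Sema3d. Other antisense genes had at most 6 counts. Gm5963 was not called by sort (log2 fold change 0.55, SE 0.39, adjusted p = 0.551 by edgeR) or by stage (0.68, SE 0.38, adjusted p = 0.298 by edgeR), and its estimate by stage had the opposite sign to that of Sema5b given below. In these summed samples, fewer expressing cells and less RNA per cell cannot be told apart. The shares of cells with a count, given below, depend on both as well.

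The first comparison asked which members differ between cells sorted for both reporters and cells sorted for tdTomato. Sema3e, Sema3c, Sema6a and Nrp1 were lower on the VGAT+Pitx3 plates than on the VGAT plates, and Sema5b, Plxna4, Sema6d and Plxnc1 were higher. With stage as a covariate, 8 of the 28 members tested passed an adjusted p of 0.05 (28.6%), beside 8.93% of all 14624 genes tested. Of these, 4 were higher (4.73% of all genes) and 4 were lower (4.2% of all genes). The median log2 fold change was -0.04 over the members and 0.00 over all genes. All adjusted p-values below are from edgeR's quasi-likelihood test with Benjamini-Hochberg adjustment over all genes tested.

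Sequences upstream of a RefSeq start are shown for 3 called members, of which Sema3e and Nrp1 lay lower in VGAT+Pitx3 cells and Plxnc1 higher. Each stretch has 250 bases that end at that start (GRCm38.p6) and overlaps no annotated exon. Letters are in lower case, with CG dinucleotides in capitals. The Sema3e stretch lies at chr5:14025026-14025275 on the plus strand, the Nrp1 stretch at chr8:128358823-128359072 on the plus strand and the Plxnc1 stretch at chr10:94944846-94945095 on the minus strand. The Nrp1 stretch lies within the annotated gene (chr8:128358604-128503363), so it is upstream of this RefSeq start and not of the whole gene.
Sema3e: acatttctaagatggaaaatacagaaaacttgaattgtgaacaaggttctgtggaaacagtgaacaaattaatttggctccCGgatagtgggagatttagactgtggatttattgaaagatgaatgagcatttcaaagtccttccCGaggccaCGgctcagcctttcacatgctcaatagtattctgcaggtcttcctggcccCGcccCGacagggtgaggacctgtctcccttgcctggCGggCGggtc
Nrp1: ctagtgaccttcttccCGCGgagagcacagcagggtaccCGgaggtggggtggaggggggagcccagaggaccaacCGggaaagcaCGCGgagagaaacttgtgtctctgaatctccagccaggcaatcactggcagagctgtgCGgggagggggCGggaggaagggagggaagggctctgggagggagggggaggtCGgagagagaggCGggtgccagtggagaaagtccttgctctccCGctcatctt
Plxnc1: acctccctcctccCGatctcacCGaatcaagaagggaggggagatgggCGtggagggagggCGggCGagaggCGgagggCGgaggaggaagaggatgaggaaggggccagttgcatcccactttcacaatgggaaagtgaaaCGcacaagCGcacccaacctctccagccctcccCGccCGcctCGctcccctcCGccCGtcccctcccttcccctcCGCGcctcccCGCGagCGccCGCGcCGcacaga
The 300-base windows (250 bases before and 50 after the start) held 11 CG for Sema3e, 14 for Nrp1 and 30 for Plxnc1, beside a median of 7 over the 32851 windows of all genes. Windows were found for 26 of the 31 members, 37 windows in all. On either strand, 0 of these members had a match to AGATAA, the letters GATA factors read, and 0 had a match to TAATCC, the letters Otx2 and Pitx3 read. Over 32851 windows of the same length, 11.2% held the first and 7.06% the second. The absence says only that these letters are not in these windows.

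Sema3e (chr5:14025276-14256689, plus strand, GRCm38) encodes the secreted ligand of Plxnd1. Its level on the VGAT plates was 41.1, 56.9, 52.3 and 49.8 CPM at E16.5 and 38.3, 41.7 and 48.2 CPM at P0.5. On the VGAT+Pitx3 plates it was 3.84 CPM (17 counts) at E16.5 and 2.24 CPM (5 counts) at P0.5. Every VGAT plate lay above both VGAT+Pitx3 plates. The fitted log2 fold change was -3.86 (SE 0.25, adjusted p = 8.78e-08 by edgeR), and the call held in all 18 alternatives. Sema3c (chr5:17574281-17730268, plus strand), a secreted ligand that binds both neuropilins, showed the same order. It stood at 23.7, 44.5, 49.4 and 52.9 CPM on the E16.5 VGAT plates and at 68.6, 37.8 and 51.1 CPM on the P0.5 VGAT plates. The VGAT+Pitx3 plates gave 3.17 CPM (14 counts) and 2.24 CPM (5 counts). The groups did not overlap, and the log2 fold change was -4.01 (SE 0.42, adjusted p = 1.29e-05 by edgeR).

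Sema6a (chr18:47235598-47368870, minus strand), a membrane ligand of Plxna2 and Plxna4, was at 369, 291, 311 and 347 CPM on the E16.5 VGAT plates and at 260, 266 and 305 CPM on the P0.5 plates. It was at 121 and 109 CPM on the VGAT+Pitx3 plates. Its levels on the VGAT+Pitx3 plates were thus below all VGAT plates without falling to the floor. On the log2 scale the difference was -1.40 (SE 0.14, adjusted p = 8.65e-06 by edgeR). Nrp1 (chr8:128358604-128503363, plus strand), the receptor subunit that holds Sema3a and is also a co-receptor of VEGF, had 236, 234, 232 and 210 CPM on the E16.5 VGAT plates and 199, 163 and 175 CPM on the P0.5 plates. The VGAT+Pitx3 plates had 36.0 CPM at E16.5 and 78.0 CPM at P0.5. Both lay below every VGAT plate, the E16.5 plate further than the P0.5 plate. Its log2 fold change was -1.89 (SE 0.26, adjusted p = 0.000145 by edgeR). It was -2.67 without the VGAT+Pitx3 P0.5 plate and -1.21 without the VGAT+Pitx3 E16.5 plate.

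**Figure D1:**
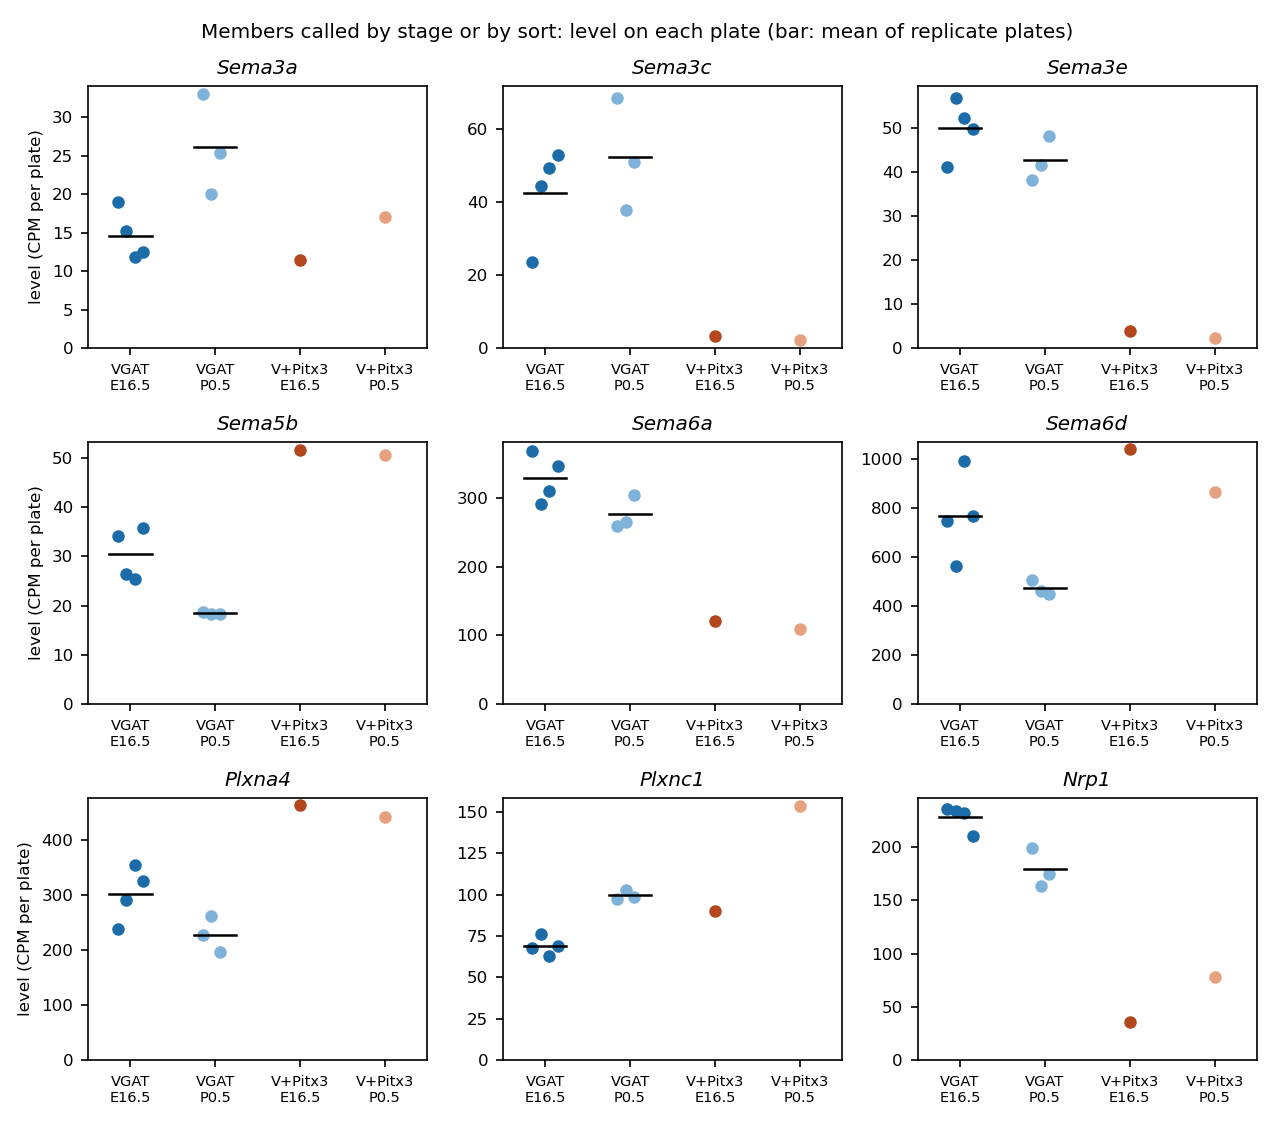
Level in CPM on each plate (points) for the 9 members called by stage or by sort, in the 4 groups of plates (V+Pitx3 stands for VGAT+Pitx3). Bars are means of replicate plates. Sema3c and Sema3e are at 2.24 to 3.84 CPM on the VGAT+Pitx3 plates and at 23.7 CPM or more on every VGAT plate.

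The members that were higher on the VGAT+Pitx3 plates differed by smaller factors. Sema5b (chr16:35541145-35664732, plus strand), a membrane semaphorin with thrombospondin repeats, was at 51.6 and 50.7 CPM there. On the VGAT plates it was at 34.2, 26.4, 25.5 and 35.7 CPM at E16.5 and at 18.8, 18.3 and 18.4 CPM at P0.5, so the groups did not overlap. On the log2 scale the difference was 1.06 (SE 0.18, adjusted p = 0.00122 by edgeR). Plxna4 (chr6:32144268-32588192, minus strand), the plexin that pairs with Nrp1 for Sema3a, was at 464 and 443 CPM on the VGAT+Pitx3 plates. On the VGAT plates it was at 238, 291, 356 and 327 CPM at E16.5 and at 227, 262 and 197 CPM at P0.5, all below both. Its log2 fold change was 0.78 (SE 0.15, adjusted p = 0.00367 by edgeR). Without the VGAT+Pitx3 P0.5 plate the adjusted p was 0.0598 for Sema5b and 0.13 for Plxna4, with log2 fold changes of 0.76 and 0.61. Leaving out either VGAT+Pitx3 plate leaves 1 in that arm, and the spread then comes from the VGAT plates alone.

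Sema6d (chr2:124089969-124667770, plus strand), a membrane ligand of Plxna1, was at 1040 and 865 CPM on the VGAT+Pitx3 plates. On the VGAT plates it was at 748, 565, 993 and 769 CPM at E16.5 and at 505, 462 and 449 CPM at P0.5. The groups overlapped when stages were pooled, since 1 E16.5 VGAT plate exceeded the P0.5 VGAT+Pitx3 plate, but within each stage the VGAT+Pitx3 plate was the highest. The log2 fold change was 0.65 (SE 0.17, adjusted p = 0.0255 by edgeR), and in spliced counts alone it was 0.95 (adjusted p = 0.000309). Plxnc1 (chr10:94790866-94944835, minus strand), the receptor of Sema7a, was at 90.0 and 154 CPM on the VGAT+Pitx3 plates. On the VGAT plates it was at 67.5, 76.3, 62.8 and 69.0 CPM at E16.5 and at 97.5, 103 and 98.7 CPM at P0.5, so the pooled groups overlapped while each stage was separate. A log2 fold change of 0.50 was fitted (SE 0.12, adjusted p = 0.0125 by edgeR). The separation of both genes within stages rests on the first name part, since with stages from the second part neither gene would be separate in both stages. On the 5 plates with 1 stage in both name parts, the log2 fold change was 0.76 for Sema6d (adjusted p = 0.0073) and 0.42 for Plxnc1 (adjusted p = 0.103), and the other 6 calls by sort held there. Without the VGAT+Pitx3 P0.5 plate, the adjusted p was 0.445 for Sema6d and 0.292 for Plxnc1, and without the VGAT+Pitx3 E16.5 plate it was 0.057 and 0.061.

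The other 20 members tested did not pass, with log2 fold changes from -0.55 to 0.35. Closest were Plxna2, a receptor of Sema6a, at -0.55 (SE 0.17, adjusted p = 0.0568), Plxna3, the plexin that pairs with Nrp2, at 0.34 (SE 0.12, adjusted p = 0.119), and Sema3a, the ligand of Nrp1, at -0.45 (SE 0.24, adjusted p = 0.365), all by edgeR. Plxna2 was at 108 and 131 CPM on the VGAT+Pitx3 plates and at 141 to 239 CPM on the VGAT plates, median 175. Plxna3 was at 116 and 111 CPM against 76.0 to 101 CPM, median 92.2, and Sema3a at 11.5 and 17.0 CPM against 11.8 to 33.0 CPM, median 19.0. Plxna2 and Plxna3 thus separated the plates without passing, and Sema3a did not separate them. Nrp2, the receptor subunit for Sema3f, was at 145 and 102 CPM against 92.1 to 178 CPM, median 118. Sema7a, the ligand of Plxnc1, was at 20.1 and 22.9 CPM against 20.2 to 32.2 CPM, and the VGAT+Pitx3 plates lay within or next to that range. Sema3b, Sema3g and Plxnb3 were not tested, having too few counts.

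**Figure D2:**
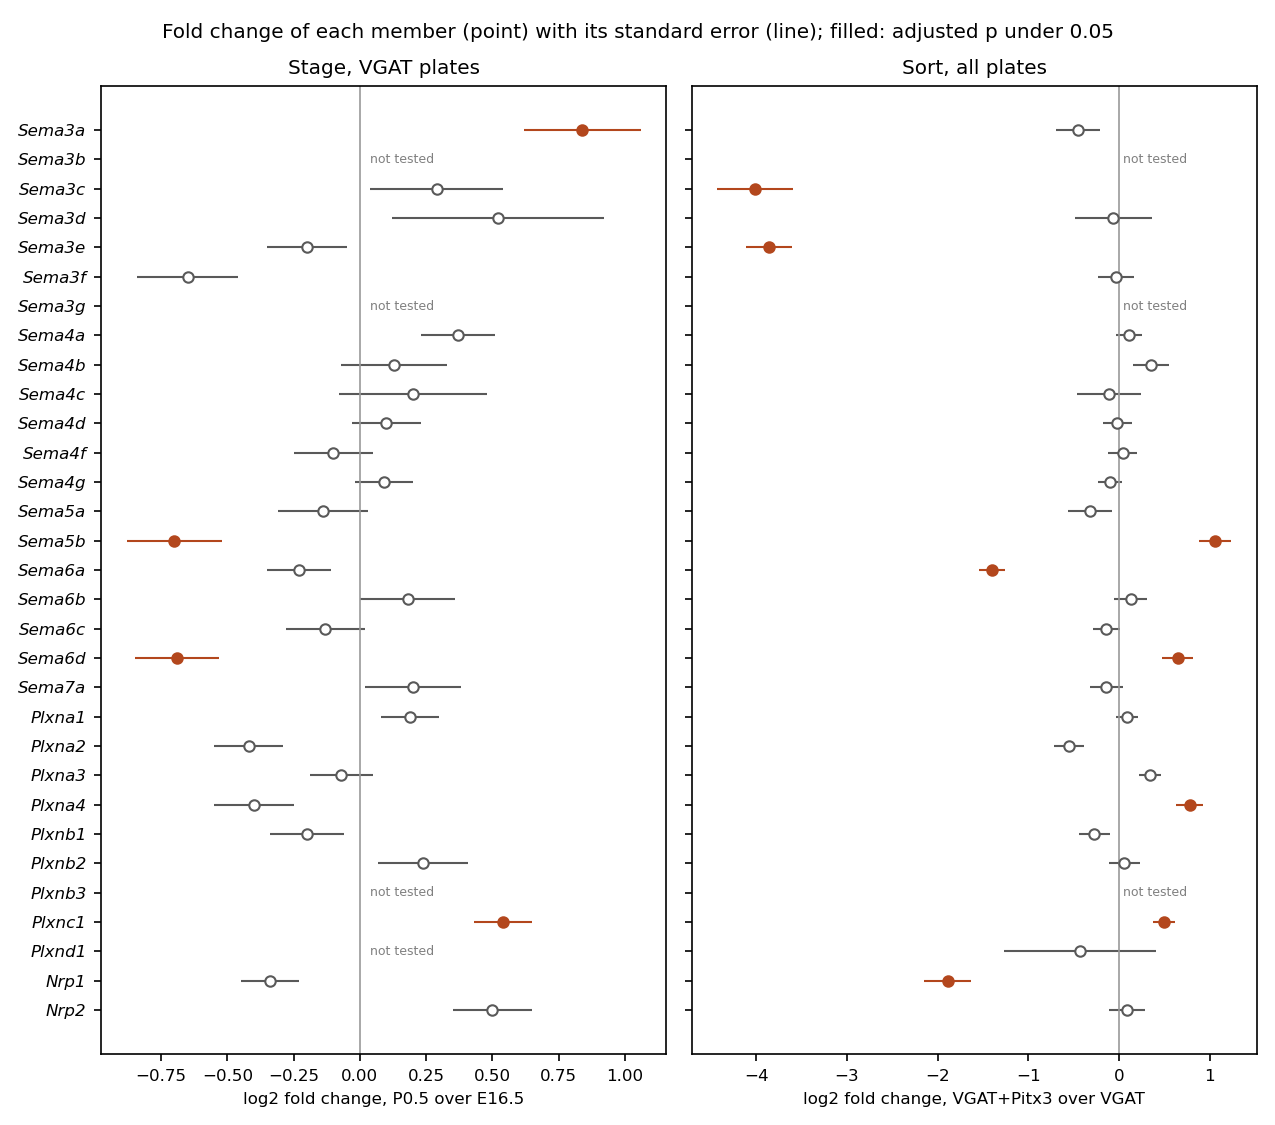
Log2 fold change (points) with its standard error (lines) of each member for stage on the VGAT plates (left) and for sort over all plates (right). Filled points passed an adjusted p of 0.05 by edgeR: 4 of 27 members by stage and 8 of 28 by sort. The axes differ in scale.

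The shares of cells with a count were compared at equal depth. Each cell was thinned to 4000 counts, which left out 79 shallower cells. Nrp1 was then found in 37.9% to 51.2% of VGAT cells per plate (median 43.7%) and in 9.7% and 22.1% of VGAT+Pitx3 cells. Sema6a was found in 51.2% to 66.1% of VGAT cells and in 25.1% and 26.9% of VGAT+Pitx3 cells. In each case both VGAT+Pitx3 plates lay below all VGAT plates. Sema3c was found in 7.69% to 14.0% of VGAT cells and in 2.01% and 0.803% of VGAT+Pitx3 cells. Sema3e was found in 8.74% to 11.8% of VGAT cells and in 1.34% and 0% of VGAT+Pitx3 cells (0 of 249 cells at P0.5, which allows a share of up to 1.2% of cells with a count at 4000 counts). As a measure of stray RNA, Gata3, a factor of midbrain GABA neurons, was found in 52.2% to 71.7% of VGAT cells and in 0.669% and 0% of VGAT+Pitx3 cells, and Pitx3 in 0 of 1408 VGAT cells, which allows up to 0.213% with a count at that depth. These limits hold for detection at 4000 counts and not for expression. At full depth Sema3e was found in 5 of 271 cells of the P0.5 VGAT+Pitx3 plate, and Pitx3 in at most 2 cells of any VGAT plate. Slc6a3, the dopamine transporter gene, was found in 0% to 9.09% of VGAT cells per plate at full depth. At 4000 counts it was found in 0% to 1.78% of VGAT cells and in 45.4% to 49.8% of VGAT+Pitx3 cells. Whether this was stray RNA or expression was not tested. At 4000 counts Plxna4 was found in 34.3% to 55.4% of VGAT cells and in 70.9% and 71.9% of VGAT+Pitx3 cells. Sema6d was found in 63.9% to 82.6% of VGAT cells and in 90.0% and 84.3% of VGAT+Pitx3 cells. Without thinning, the shares were 51.1% to 77.6% against 17.1% and 29.2% for Nrp1, 16.4% to 31.8% against 3.95% and 1.48% for Sema3c, 14.6% to 27.2% against 4.93% and 1.85% for Sema3e, 65.3% to 91.6% against 49.3% and 39.5% for Sema6a, and 62.6% to 80.9% against 88.8% and 85.6% for Plxna4.

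**Figure D3:**
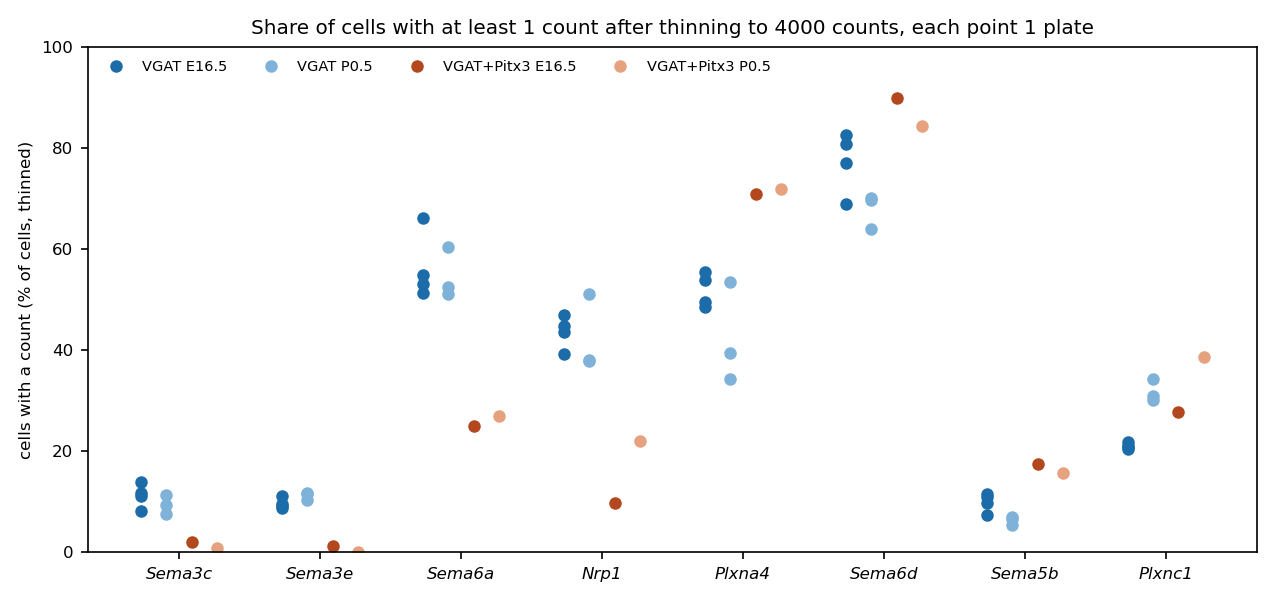
Share of cells in percent with at least 1 count after each cell was thinned to 4000 counts, for 8 members (groups on the x axis) and each plate (points, coloured by group). Nrp1, Sema6a, Sema3c and Sema3e are lower, and Plxna4, Sema5b and Sema6d higher, on the VGAT+Pitx3 plates than on every VGAT plate. Plxnc1 overlaps.

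Markers of other cells moved with the sort. The summed level of 6 dopamine neuron markers was 4670 and 3700 CPM on the VGAT+Pitx3 plates against 23.3 to 53.2 CPM on the VGAT plates, and 3 glutamate neuron markers summed to 108 and 210 CPM against 1.90 to 23.9 CPM. Six3 and Pax5, the nigral GABA markers, summed to 6.33 and 11.2 CPM on the VGAT+Pitx3 plates against 358 to 791 CPM on the VGAT plates, and Otx2 was at 28.5 and 18.4 CPM against 64.4 to 116 CPM. The 4 Dlx genes, which mark forebrain GABA neurons, were all at 0 on both VGAT+Pitx3 plates and summed to 7.59 to 216 CPM on the VGAT plates. Another 5 markers, of hindbrain-like neurons, summed to 0.226 and 0 CPM against 0.595 to 27.2 CPM. The sum of 5 microglia markers was 38.9 CPM on VGAT E16.5 replicate 2 and 55.0 CPM on VGAT P0.5 replicate 2. It was 2.58 to 6.47 CPM on all other plates of both sorts. The sum of 5 astrocyte or radial glia markers was 155 and 141 CPM on the VGAT+Pitx3 plates, 375 CPM on 1 VGAT plate (P0.5 replicate 2, with none of the 5 at 0) and 4.93 to 11.6 CPM on the other VGAT plates. The part of these cells in the result was not tested. Without that VGAT plate all 8 members were still called, as was Plxna3, while the glial markers were then higher on both VGAT+Pitx3 plates than on every remaining VGAT plate. Endothelial markers, which matter because vessels express Nrp1, summed to at most 10.6 CPM on any plate. Of 40 genes listed as co-receptors and effectors of semaphorin signalling, 35 were tested, and 2 were called higher and 0 lower, which is 5.71% and below the 8.93% of all genes. Met, the HGF receptor, which can associate with Plxnb1, was at 58.6 and 85.2 CPM on the VGAT+Pitx3 plates against 1.67 to 8.62 CPM, median 3.80, a log2 fold change of 4.08 (SE 0.31, adjusted p = 4.54e-07 by edgeR). Rap1b, a small GTPase on which plexins act, was at 250 and 210 CPM against 103 to 141 CPM, median 125 (log2 fold change 0.91, SE 0.11, adjusted p = 6e-05 by edgeR). Neither gene's plates overlapped between the sorts. The list's median log2 fold change was 0.06, beside 0.00 over all genes.

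Between E16.5 and P0.5 on the VGAT plates, Plxnc1 and Sema3a rose and Sema6d and Sema5b fell, by 1.46 to 1.80 fold. These 4 were 14.8% of the 27 members tested, beside 4.58% of all 13639 genes, with 2 higher (2.84% of all genes) and 2 lower (1.74% of all genes). The median log2 fold change was 0.09 over the members and 0.02 over all genes. The receptor Plxnc1 was at 68.9 ± 5.62 CPM (SD, n = 4) at E16.5 and at 99.7 ± 2.75 CPM (SD, n = 3) at P0.5, with every P0.5 plate above every E16.5 plate. Its log2 fold change was 0.54 (SE 0.11, adjusted p = 0.0231 by edgeR). In spliced counts it was 0.70 (adjusted p = 0.0129). The ligand Sema3a (chr5:13125414-13602565, plus strand) was at 19.0, 15.2, 11.8 and 12.5 CPM at E16.5 and at 33.0, 20.0 and 25.4 CPM at P0.5, again without overlap (log2 fold change 0.84, SE 0.22, adjusted p = 0.0489 by edgeR).

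Sema6d fell from 769 ± 175 CPM (SD, n = 4) to 472 ± 29.5 CPM (SD, n = 3), and no P0.5 plate reached the lowest E16.5 plate. Its log2 fold change was -0.69 (SE 0.16, adjusted p = 0.0367 by edgeR). Sema5b went from 30.4 ± 5.27 CPM (SD, n = 4) to 18.5 ± 0.274 CPM (SD, n = 3), without overlap. Its estimate was -0.70 on the log2 scale (SE 0.18, adjusted p = 0.0483 by edgeR). Neither decrease appeared in spliced counts, and unspliced counts were not fitted alone. In spliced counts the log2 fold change was -0.04 for Sema6d (adjusted p = 0.916 by edgeR) and -0.03 for Sema5b (adjusted p = 0.966 by edgeR). The spliced share of all counts was 73.2, 75.7, 70.7 and 70.0% on the E16.5 VGAT plates. It was 74.1, 78.1 and 79.9% on the P0.5 VGAT plates. The part of these shares in both calls was not tested.

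The calls by stage did not outlast most single changes of the samples. Leaving out the E16.5 replicates 1, 2, 3 and 4 in turn left 1, 4, 0 and 0 members called, and leaving out the P0.5 replicates 1, 2 and 3 left 2, 0 and 0. Only 3 VGAT plates have 1 stage in both parts of the plate name, E16.5 replicates 1 and 2 and P0.5 replicate 2, so the P0.5 arm is 1 plate, assumed to spread as the E16.5 pair does. On these name-matched plates 0 members were called, and the log2 fold changes were 0.51 for Plxnc1 (adjusted p = 0.111), 0.24 for Sema3a (0.662), -0.51 for Sema6d (0.144) and -0.72 for Sema5b (0.161). Markers of other cells moved with stage too. The 4 Dlx genes summed to 50.8, 216, 46.6 and 42.4 CPM at E16.5 and to 43.7, 21.1 and 7.59 CPM at P0.5, lower at P0.5 but for replicate 1, which lay above the lowest E16.5 plate. Of the P0.5 plates, replicate 2 carried the glial markers given above. The part of these cells in the calls by stage was not tested. Within cells with Six3 and neither Pax5 nor Otx2, 0 of 26 members passed and 151 of 10455 genes did. There the log2 fold changes were 0.64 for Plxnc1 (adjusted p = 0.11), 1.99 for Sema3a (0.108), -0.89 for Sema6d (0.0651) and -0.42 for Sema5b (0.667), the same directions as on whole plates. For Sema3a 1 sum of 9 cells, on P0.5 replicate 1, stood at 73.3 CPM (23 counts) against 12.1 and 20.3 CPM on the other P0.5 plates and 1.53 to 13.4 CPM at E16.5. Without that plate its log2 fold change in Six3 cells was 1.16 (adjusted p = 0.265 by edgeR), those of Plxnc1, Sema6d and Sema5b were 0.47, -0.72 and -0.15, and 1 member, Nrp1, was called.

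The other 23 members tested by stage did not pass, with log2 fold changes from -0.65 to 0.52. Sema3f, the ligand of Nrp2, was closest at -0.65 (SE 0.19, adjusted p = 0.0658), with 28.6, 26.9, 35.6 and 32.3 CPM at E16.5 and 14.1, 22.8 and 20.7 CPM at P0.5. Plxna2 followed at -0.42 (SE 0.13, adjusted p = 0.0716), with 175, 199, 193 and 239 CPM at E16.5 and 151, 156 and 141 CPM at P0.5. For Nrp2 the log2 fold change was 0.50 (SE 0.15, adjusted p = 0.075), with 92.1, 118, 92.2 and 105 CPM at E16.5 and 122, 123 and 178 CPM at P0.5, all by edgeR. The ligand Sema3f and its receptor Nrp2 thus lay on opposite sides of 0, and neither passed. These 3 genes were named for their small p-values, so the separation of their stages is no further evidence of a difference. On the name-matched plates, with 1 plate at P0.5, the log2 fold changes were -0.28 for Sema3f, -0.27 for Plxna2 and 0.22 for Nrp2. Sema3b, Sema3g, Plxnb3 and Plxnd1 were not tested. Among the 40 co-receptors and effectors, 35 were tested, and 2 were called higher and 0 lower, which is 5.71% and close to the 4.58% of all genes. Farp2, an exchange factor for Rac that binds class A plexins, went from 27.3 ± 3.28 CPM (SD, n = 4) to 46.5 ± 10.3 CPM (SD, n = 3), a log2 fold change of 0.78 (SE 0.17, adjusted p = 0.0302 by edgeR). Cntn2, an adhesion molecule of growing axons, went from 34.6 ± 2.18 to 51.4 ± 5.16 CPM with the same n (log2 fold change 0.58, SE 0.13, adjusted p = 0.0352 by edgeR). Both were highest at P0.5 on replicate 2 (58.3 and 57.2 CPM), the plate with the glial markers and the only P0.5 plate among the name-matched ones, where the log2 fold changes were 0.98 and 0.80. The list's median was -0.12, beside 0.02 over all genes.

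Whether the stage difference depends on the sort was asked with an interaction term, in which the single VGAT+Pitx3 plate of each stage was given the spread of the VGAT plates. With edgeR, 0 of 29 members and 0% of 15724 genes passed, while 8 members and 998 genes had an unadjusted p under 0.05. DESeq2 called 14 genes. The smallest unadjusted p among the members belonged to Nrp1 (8.22e-05). From E16.5 to P0.5 its CPM changed by a ratio of 0.786 on the VGAT plates and 2.17 on the VGAT+Pitx3 plates, an interaction of 1.46 on the log2 scale (SE 0.26, adjusted p = 0.773 by edgeR). DESeq2 gave it an adjusted p of 0.00475, and edgeR without a filter on low counts gave 0.00455. Over the alternatives its adjusted p ran from 0.00455 to 0.961. Sema5a, a membrane semaphorin related to Sema5b, followed with ratios of 0.902 and 2.01 (interaction 1.16, SE 0.36, adjusted p = 0.773 by edgeR), and Nrp2 with 1.39 and 0.705 (interaction -0.99, SE 0.33, adjusted p = 0.773 by edgeR). Sema6d had ratios of 0.614 and 0.834 (interaction 0.44, SE 0.33, adjusted p = 0.832 by edgeR). On the 5 name-matched plates, where 3 of the 4 groups hold 1 plate and the spread comes from the VGAT E16.5 pair alone, the interactions were 1.64 for Nrp1, 0.93 for Sema5a, -0.72 for Nrp2 and 0.25 for Sema6d. Nrp1 and Nrp2 therefore had interaction estimates of opposite sign, neither of which passed. The median was -0.01 over the members and over all genes, and of the 40 co-receptors and effectors 35 were tested and 0 called.

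Six3 and Pax5 mark separate GABA neurons of the substantia nigra pars reticulata, and Otx2 marks GABA neurons of the ventral tegmental area, besides cells of the midbrain reticular formation and the interpeduncular nucleus. Cells of the VGAT plates with at least 1 count of exactly 1 of these factors were summed per plate, and sums under 5 cells were left out. This left 426 Six3 cells on 7 plates, 154 Pax5 cells on 5 plates and 102 Otx2 cells on 6 plates. Per plate the sums held 9 to 86 Six3 cells, 6 to 58 Pax5 cells and 8 to 40 Otx2 cells. Some values therefore rest on few counts, such as 6 of Nrp1 in Pax5 cells of P0.5 replicate 3. Such a class is a range set by detection and not a cell type. Each comparison was fitted within plates over 9342 genes, and 26 members were tested. The 3 comparisons share cells, so each is given by its own values.

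Nrp1 was highest in Six3 cells. In these its level had a lowest, median and highest value of 175, 316 and 354 CPM over 7 plates. In Pax5 cells it was at 190, 104, 146, 159 and 52.6 CPM on E16.5 replicates 2, 3 and 4 and P0.5 replicates 2 and 3. On all 5 plates with both sums, Six3 cells had the higher level. The log2 fold change of Six3 over Pax5 cells was 1.13 (SE 0.18, adjusted p = 0.000533 by edgeR), and the call held in all 15 alternatives. Nrp1 was the only 1 of 26 members called in this comparison (3.85%), beside 2.14% of all genes. Sema3c (log2 fold change 1.15, SE 0.35, adjusted p = 0.107), Sema6a (0.55, SE 0.18, adjusted p = 0.141) and Sema3e (1.02, SE 0.33, adjusted p = 0.142) were next by edgeR. Sema3e and Sema6a were higher in Six3 cells on 5 of 5 plates and Sema3c on 3 of 5. Sema6d did not pass (0.34, SE 0.14, adjusted p = 0.38 by edgeR). The median was 0.01 over the members and 0.00 over all genes, and 0 of 30 tested co-receptors and effectors were called.

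Otx2 cells differed from Six3 cells in a receptor pair and a ligand. Of 26 members, 3 passed (11.5%), beside 2.88% of all genes. Nrp1 was at 48.3, 127 and 153 CPM (lowest, median and highest of 6 plates) in Otx2 cells and was lower than in Six3 cells on 6 of 6 plates (log2 fold change -1.26, SE 0.18, adjusted p = 0.000151 by edgeR). Its partner Plxna4 was at 90.9, 138 and 277 CPM in Otx2 cells and at 246, 315 and 451 CPM in Six3 cells. It too was lower in Otx2 cells on 6 of 6 plates (log2 fold change -1.15, SE 0.18, adjusted p = 0.000286 by edgeR). The ligand Sema6a was at 319, 419 and 647 CPM in Otx2 cells and at 226, 285 and 368 CPM in Six3 cells, and it was higher in Otx2 cells on 6 of 6 plates (log2 fold change 0.71, SE 0.16, adjusted p = 0.011 by edgeR). The call on Sema6a was lost without E16.5 replicate 3 (adjusted p = 0.0662) and without E16.5 replicate 4 (adjusted p = 0.103). Without E16.5 replicate 3, Sema3e was called as well. Plxna1, Plxna2 and Sema4a, a membrane ligand of B plexins, had log2 fold changes of -0.42, -0.47 and -0.70 (SE 0.14, 0.17 and 0.26; adjusted p = 0.144, 0.17 and 0.204 by edgeR). Each was lower in Otx2 cells on 5 of 6 plates. Sema6d did not pass at -0.18 (SE 0.13, adjusted p = 0.652 by edgeR), and in spliced counts it was 0.36 (adjusted p = 0.476). The median was -0.16 over the members and 0.00 over all genes. Of the 30 co-receptors and effectors tested, 0 were called higher and 1 lower, L1cam, an adhesion molecule that binds Nrp1 (log2 fold change -0.37, SE 0.1, adjusted p = 0.0472 by edgeR, lower on 6 of 6 plates).

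**Figure D4:**
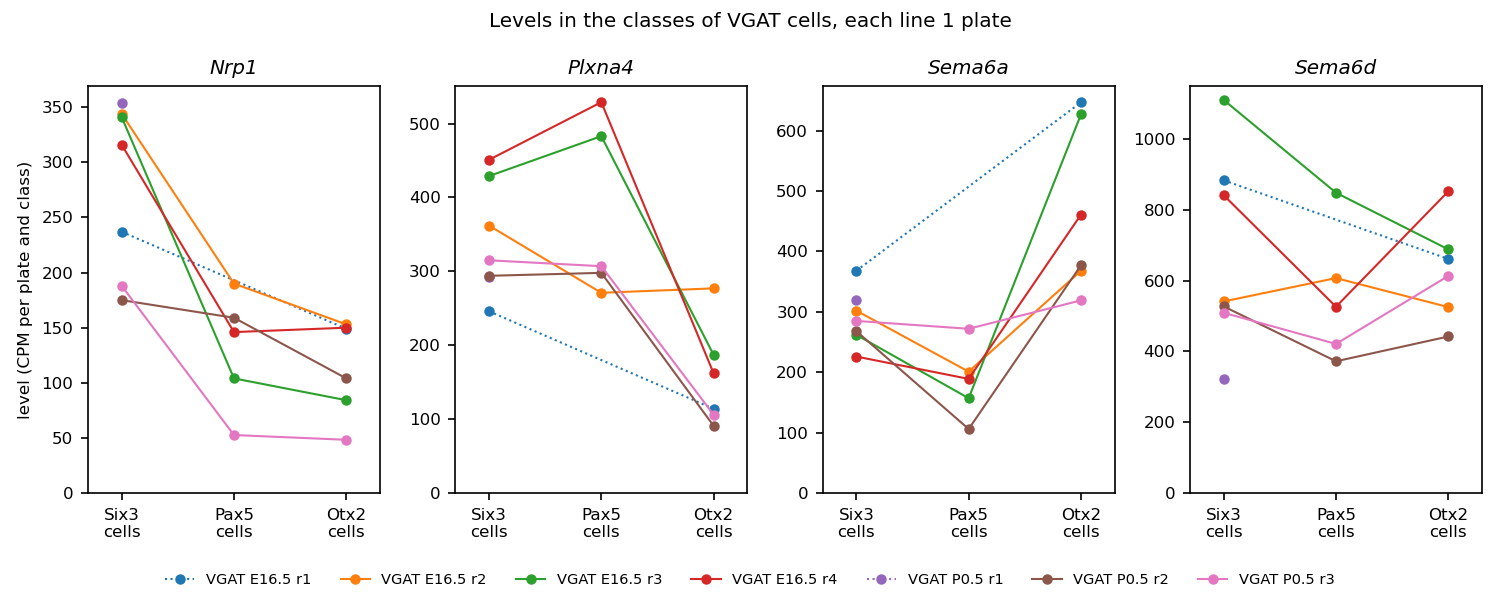
Level in CPM of Nrp1, Plxna4, Sema6a and Sema6d in Six3, Pax5 and Otx2 cells of the VGAT plates. Each line joins the sums of 1 plate, and a dotted line spans a class with fewer than 5 cells. Nrp1 and Plxna4 are lower and Sema6a higher in Otx2 than in Six3 cells on 6 of 6 plates.

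Against Pax5 cells, Otx2 cells differed in Sema6a and Plxna4. This was 2 of 26 members (7.69%), beside 4.01% of all genes. Sema6a was at 201, 157, 189, 106 and 272 CPM in Pax5 cells and was higher in Otx2 cells on 5 of 5 plates (log2 fold change 1.26, SE 0.19, adjusted p = 0.000162 by edgeR). Plxna4 was at 271, 483, 529, 298 and 307 CPM in Pax5 cells and was higher in Otx2 cells on only 1 of 5 plates (log2 fold change -1.16, SE 0.19, adjusted p = 0.000546 by edgeR). Both calls held in all 15 alternatives. Next were Plxnc1 (-0.81, SE 0.25, adjusted p = 0.087), Sema3f (-0.90, SE 0.3, adjusted p = 0.117) and Plxnb2, a receptor of class 4 semaphorins (0.64, SE 0.23, adjusted p = 0.153), by edgeR. Plxnc1 was lower in Otx2 cells on 5 of 5 plates, and Plxnb2 was higher on 5 of 5. Sema6d had a log2 fold change of 0.16 (SE 0.15, adjusted p = 0.717 by edgeR), and in spliced counts it passed at 0.85 (adjusted p = 0.0445). The median was -0.11 over the members and 0.00 over all genes. Of the 30 co-receptors and effectors tested, 0 were called higher and 2 lower, L1cam (log2 fold change -0.55, SE 0.11, adjusted p = 0.00307 by edgeR) and Dpysl3, a collapsin response mediator protein (-0.42, SE 0.09, adjusted p = 0.00477 by edgeR), each lower in Otx2 cells on 5 of 5 plates.

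Whether single VGAT cells hold both parts of a receptor, or a ligand with its receptor, was asked for 6 pairs, with each cell thinned to 4000 counts. Nrp1 was found in 48.2% ± 10.4 (SD, n = 7 plates) of cells with Plxna4 and in 39.4% ± 4.74 (SD, n = 7 plates) of cells without it. The difference was 8.76 ± 11.2 percentage points (SD, n = 7 plates), positive on 6 of 7 plates, and ran from -4.15 to 32.1 points. The exact two-sided sign-flip permutation test gave p = 0.0312 (0.188 adjusted over the 6 pairs), where the smallest p that 7 plates allow is 0.0156. The highest difference came from P0.5 replicate 1, with 17 cells with Plxna4 and 26 without. Without that plate the difference was 4.86 points (adjusted exact p = 0.312). On the VGAT+Pitx3 plates the difference was -4.15 and -1.07 points. The difference was smaller than its spread over plates in all 6 pairs. For the other 5 it was 0.00812 ± 7.86 points for Nrp1 by Plxna2, 4.06 ± 7.54 for Nrp2 by Plxna3, -3.20 ± 9.04 for Nrp1 by Nrp2, -3.63 ± 10.7 for Sema6a by Plxna2 and -1.47 ± 11.9 for Sema6d by Plxna1 (SD, n = 7 plates), with adjusted exact p from 0.703 to 1.0.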

How the data were processed

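Single cells were sorted into wells and read with CEL-seq2, a 3' method that counts molecules. The authors aligned reads with STAR to mouse (mm10 per the labels) and deposited tables of estimated counts per gene and well, total, spliced and unspliced; 0 columns were left unused. The members and lists were chosen with earlier results of these data known. The well filter asked for 2000 or more genes, no more than 50000 counts without spike-ins, and less than 15% mitochondrial counts. No doublet caller was run; leaving out cells over 2 times the median of their plate was an alternative. Counts were summed per plate, or per plate and class, rounded, scaled by TMM and tested with edgeR 4.0.16 (quasi-likelihood, filterByExpr, Benjamini-Hochberg over all genes, threshold 0.05). CPM are counts scaled to 1000000 per library. Named were every called member, the 3 next by unadjusted p, Sema6d, and at most 4 called of the 40 pathway genes. Alternatives were DESeq2 1.42.0, RLE size factors, no low-count filter, spliced counts, other cell filters, thinning, a replicate block and leaving out plates, with name-matched plates and Six3 cells (also without 1 plate) added after seeing the data. Each fit was tested on simulated data. Promoter windows and coordinates came from RefSeq and GENCODE tables of GRCm38. Floors and shares cover counting error only. 1 gene of a marker list is not reported here.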

Additional observations from a re-analysis of the deposited data

Results flagged for a closer look

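1 value stood apart within its group. The Nrp1 level of 210 CPM on VGAT E16.5 replicate 4 lay below the other 3 plates (236, 234 and 232 CPM). The gap was 0.844 of the group's narrow range, above the critical value of Dixon's test for 4 samples. Of the members, 27 were tested in this way in the VGAT E16.5 group, and chance flags about 1 in 20 groups. In the edgeR fit with the low-count filter no member passed the test of a difference in stage effect between the sorts, whereas Nrp1 passed without the filter.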

How the results depend on the processing

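The sort calls on Sema3e, Sema3c, Sema6a and Nrp1 held in all 18 alternatives, Nrp1 between Six3 and Pax5 cells in 15 of 15, and Sema6a and Plxna4 between Otx2 and Pax5 cells in 15 of 15. The calls by stage did not hold. Against 4 members called by stage, 7 were called without a filter on low counts, 1 in spliced counts (Plxnc1), 2 without cells over 2 times the median, 1 with cells thinned to 4000 counts (Sema6d), 0 on plates with 1 stage in both name parts, 0 in Six3 cells, 1 in Six3 cells without P0.5 replicate 1 (Nrp1), and 0 to 4 when a plate was left out. By sort, leaving out a plate gave 5 to 9 members against 8. For the interaction, DESeq2 and edgeR without the filter each called 1 member (Nrp1), against 0. Without the filter, 6 members were called between Six3 and Pax5 cells (1 in the fit reported) and 4 between Otx2 and Pax5 cells (2 in the fit reported). Spliced counts gave 2 and 4. Sema6d between Otx2 and Six3 cells changed sign in spliced counts (0.36).

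With the replicate number as a block, 0 members were called by stage, 6 by sort and 0 for the interaction. Without the plate block the class comparisons gave 1, 3 and 2 members. Deviations of plates with the same number correlated at 0.0331, 0.0251 and 0.0318, and 1 of 3 pairs correlated best with its own number, so the numbers were not taken as pairs. Over all genes, 624 calls by stage became 944 with DESeq2, 1588 without the filter and 210 with the block, and 0 interaction calls became 14 and 66 with DESeq2 and without the filter. The 200, 269 and 375 class calls became 466, 571 and 640 without the filter and 121, 160 and 211 without the plate block. The interaction could not be fitted without either VGAT+Pitx3 plate.

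The difference in co-detection changed sign for Nrp2 by Plxna3 with thinning to 8000 counts (-0.959 points) and at 2 or more counts (-0.363). It did so for Nrp1 by Nrp2 with thinning to 8000 counts (2.98), no thinning (5.21) and 2 or more counts (0.887), and with no thinning for Sema6a by Plxna2 (1.58) and Sema6d by Plxna1 (4.12). Leaving out a plate gave -1.90 to 2.06 points for Nrp1 by Plxna2 and -5.18 to 1.13 for Sema6d by Plxna1. The causes were not tested. P0.5 replicate 1 had 44 cells, which limits every value by stage.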
